A study of Mus musculus with 6 samples.

Results

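The mitochondrial respiratory chain subunits described here are 51 nuclear genes that encode parts of complexes I to IV. They were listed by name, 28 for complex I, 4 for complex II, 7 for complex III and 12 for complex IV, and found on the array through the gene symbols of the platform annotation. Of the 51, 49 had at least 1 probe set assigned to that gene alone. These 49 are among 18193 genes so named on the array, and the brightest probe set of each passed the filter on dim probe sets, so all 49 were tested among 12637 genes. Cox7b had no probe set named here, and the probe set of Ndufs6 was listed for Ndufs6b as well, so neither has a value. The samples were 3 arrays of neocortical and 3 of cerebellar astrocytes from mouse, hybridised with biotin-labelled RNA amplified from total RNA. No treatment or genotype is named in the labels. The ICR strain is named for the neocortical arrays only, so if the cerebellar samples came from another strain, region and strain cannot be told apart. The sources used here do not give age, isolation or whether the cells were cultured. Nor do the labels say if arrays of a region came from separate animals or preparations; the spread behind every p-value is that between these arrays and may be technical.

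The respiratory chain sits in the inner mitochondrial membrane and passes electrons from NADH and succinate to oxygen while pumping protons, which ATP synthase then uses to make ATP. Complex I oxidises NADH, complex II oxidises succinate as part of the tricarboxylic acid cycle, complex III passes electrons to cytochrome c, and complex IV reduces oxygen. Most subunits are encoded in the nucleus and a small core is encoded by mitochondrial DNA. Astrocytes are known for active glycolysis, and they also hold mitochondria that oxidise glutamate and fatty acids. Several complex IV subunits exist as pairs of isoforms with different tissue distribution.

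Promoter sequences are shown first, for members whose signal differed between regions and for members that hold motifs known from genes of this family. RefSeq promoters of build GRCm38.p6, running from 250 bases before to 50 bases after the gene's start, were matched by symbol for 39 of the 51 members. The letters GCGCA and GCGC with any 1 base between them, a form of the site of NRF1, a regulator of respiratory genes, were found on either strand in promoters of 8 of these 39 genes (20.5%), against 5.19% of all 27025 genes with a promoter in the table. The letters AAGATGGCG, a form of the YY1 site, were found in 5 of 39 (12.8%), against 1.64% of all genes. The ETS-type letters CCGGAAG, as bound by GABP, were found in 9 of 39 (23.1%), against 9.93%. The letters GGGCGG, a Sp1-type box, were found in 15 of 39 (38.5%), against 38.2%. The 4 letter strings do not contain one another. A match is a description of the letters and not evidence of binding. The following 30-base windows, written 5′ to 3′ on the gene's strand, show NRF1 matches in capitals, that of Ndufa8 being on the opposite strand.
Sdha, chr13:74350319-74350348 (-): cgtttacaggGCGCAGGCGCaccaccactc
Cox6a1, chr5:115349101-115349130 (-): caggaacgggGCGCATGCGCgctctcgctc
Ndufa8, chr2:36049349-36049378 (-): ctagagcagtGCGCTTGCGCgtcgctggag
Sdhd, chr9:50603909-50603938 (-): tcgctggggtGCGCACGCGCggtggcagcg
The windows below show YY1 matches in capitals, each a short way after the gene's start.
Ndufa9, chr6:126849097-126849125 (-): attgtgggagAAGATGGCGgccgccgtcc
Ndufc1, chr3:51408915-51408943 (-): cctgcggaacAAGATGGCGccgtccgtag
Ndufs7, chr10:80249463-80249491 (+): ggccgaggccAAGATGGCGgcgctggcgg

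Of the 6 members that were lower in cerebellar astrocytes, given below, 5 had a promoter in the table. None of these 5 held the NRF1 or YY1 letters, Cox6b1 held the ETS-type letters and Cox7a2 the Sp1-type letters. The 250 bases before the start are printed for Ndufc2, the member with the smallest adjusted p, and for the isoform pair Cox7a1 and Cox7a2, with any match in capitals.
Ndufc2 promoter, chr7:97399753-97400002 (+): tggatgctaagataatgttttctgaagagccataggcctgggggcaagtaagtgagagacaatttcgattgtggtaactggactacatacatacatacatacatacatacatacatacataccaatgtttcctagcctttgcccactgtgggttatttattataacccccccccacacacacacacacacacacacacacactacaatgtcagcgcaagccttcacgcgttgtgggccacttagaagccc
Cox7a1 promoter, chr7:30183921-30184170 (+): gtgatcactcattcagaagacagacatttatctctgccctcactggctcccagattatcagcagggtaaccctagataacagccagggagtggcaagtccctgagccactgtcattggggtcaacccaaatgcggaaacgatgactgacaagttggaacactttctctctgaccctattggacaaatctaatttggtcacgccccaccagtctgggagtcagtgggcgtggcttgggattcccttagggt
Cox7a2 promoter, chr9:79759854-79760103 (-): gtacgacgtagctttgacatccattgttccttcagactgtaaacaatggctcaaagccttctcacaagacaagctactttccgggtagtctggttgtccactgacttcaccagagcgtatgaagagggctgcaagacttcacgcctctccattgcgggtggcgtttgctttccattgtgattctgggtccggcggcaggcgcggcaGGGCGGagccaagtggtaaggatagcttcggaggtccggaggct

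Respiratory chain subunits differed little between astrocytes of the 2 regions. Of the 49 members tested, 6 were lower in cerebellar astrocytes and none was higher (limma, Benjamini-Hochberg adjusted p under 0.05 over all 27022 probe sets tested, each gene read by its brightest probe set). Among all genes tested, 7.47% were lower and 5.4% were higher by the same rule. The 6 members are 12.2% of the 49. Of the members, 37 were among the brightest 10% of genes, where 11.1% were lower, so the members' share is close to that of genes as bright. At an unadjusted p under 0.05 a total of 13 of the 49 members were lower and again none was higher. Of all 12637 genes, 1957 were lower and 1603 higher at that threshold. Of the 1264 genes in the brightest 10%, 273 were lower and 222 higher. The 6 past the adjusted threshold were Ndufb10 and Ndufc2 of complex I, Uqcrb of complex III, and Cox6b1, Cox7a1 and Cox7a2 of complex IV. No member of complex II passed.

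Signal here is the deposited intensity after quantile normalization, in arbitrary units, and differences are log2 of cerebellar over neocortical signal, with values under a floor of 62.2 raised to it. The median log2 difference of the 49 members was -0.10, against -0.02 over all genes and -0.02 over the brightest 10%. A total of 36 members lay below 0 (73.5%), compared with 51.9% of all genes. On 17 members every cerebellar array was below every neocortical one (34.7%), against 18.5% of all genes and 23.7% of the brightest 10%. The reverse held for 1 member, Ndufv1, against 16.0% of all genes. Most of these differences were small, and for 44 of the 49 members the 95% interval of the difference lay inside 1.5-fold in either direction. That held for 5572 of all 12637 genes and for 975 of the 1264 in the brightest 10%. The 5 members for which it did not hold were Ndufb10, Ndufa6, Cox4i2, Cox6a2 and Cox7a1, as the plot of all differences shows. The size of the shift depended on the scaling. When each array was scaled by its median the members' median was -0.30, while that of all genes moved to -0.14 (for all probe sets, from 0.01 to -0.10). With the values as deposited it was -0.14, with all genes at 0.02.

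**Figure D1:**
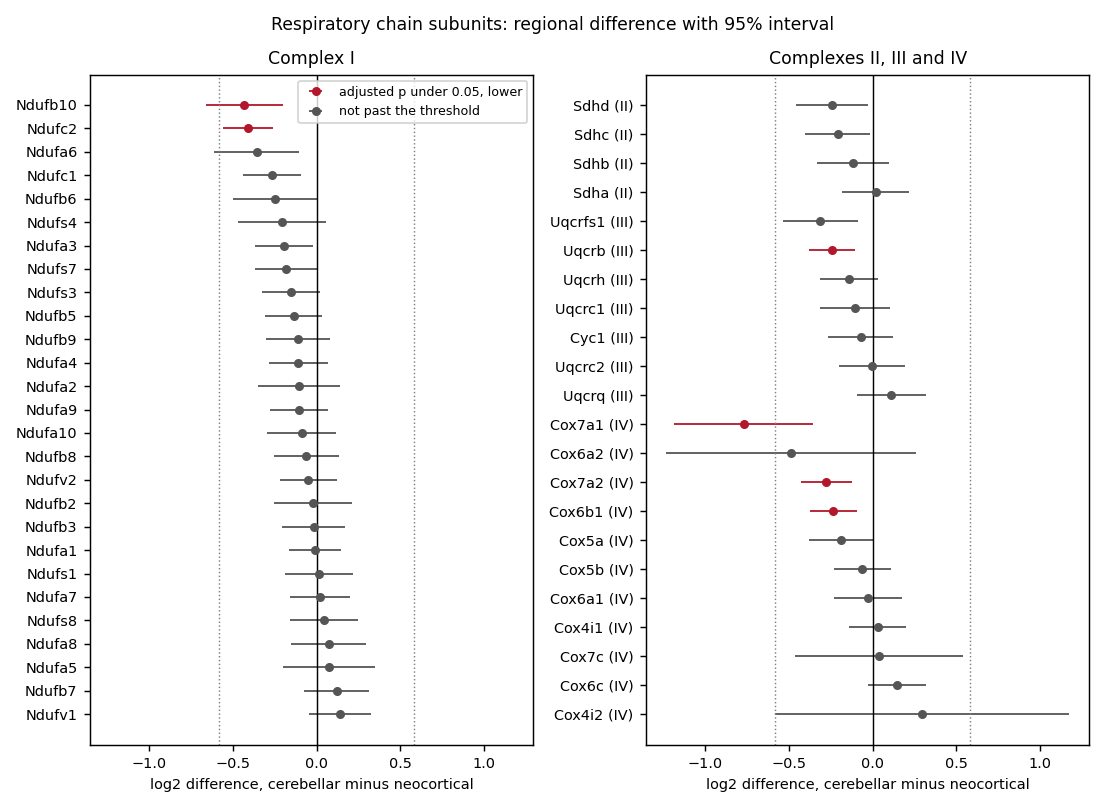
Log2 difference in signal, cerebellar minus neocortical astrocytes, for the 49 tested members by complex, with 95% intervals of the limma fit (n = 3 arrays per region). Dotted lines mark 1.5-fold; the 6 members past the threshold, in red, all lie below 0, and the widest intervals are those of the dim isoforms Cox4i2 and Cox6a2.

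The members varied little between arrays of a region. The median within-group standard deviation of a member was 0.084 on the log2 scale, compared with 0.194 over all genes and 0.114 in the brightest 10%. Relative to the neocortical mean, the members' median was -0.06, -0.06 and -0.16 on cerebellar arrays 1 to 3, and 0.03, -0.01 and 0.01 on neocortical arrays 1 to 3. Cerebellar array 3 was thus the lowest for this family, with 40 of 49 members below the neocortical mean against 32 on each of the others. It was also the lowest over all 12637 genes, with 6754 below that mean against 6272 and 6224 on arrays 1 and 2. Among the 1264 genes of the brightest 10% the counts were 702 against 655 and 627. Without cerebellar replicate 3 the members' median was -0.06 and 3 members passed, Ndufb10, Ndufc2 and Cox7a1. Leaving out any 1 array left between 1 and 3 members past the threshold, and Ndufc2 was among them each time. The number of lower probe sets over the whole array, 1567 with all arrays, then ran from 668 to 1560. The 3′ to 5′ signal ratio of the Gapdh control, a gauge of RNA integrity, ran from 0.865 to 0.883 on neocortical and from 0.913 to 1.07 on cerebellar arrays (two-sided exact permutation p = 0.1, the smallest that 3 against 3 allow). That of the actin control overlapped, at 1.35 to 1.44 against 1.42 to 1.62 (two-sided exact permutation p = 0.2). The part of RNA integrity in these differences was not tested. In bulk RNA, fewer cells of a type and less RNA per cell cannot be told apart.

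Complex I was described by the roles of its subunits. The 6 listed core subunits of the matrix arm (Ndufv1, Ndufv2, Ndufs1, Ndufs3, Ndufs7 and Ndufs8) had a median difference of -0.02, with a range from -0.18 to 0.14, and none passed. Ndufv1, the flavin-binding subunit, read 11850.0, 11206 and 11704 on neocortical and 13248, 13048 and 12067 on cerebellar arrays. The cerebellar values all lay above the neocortical ones, but the difference of 0.14 ± 0.082 (SE) did not pass (limma adjusted p = 0.312). Ndufs7, which holds the last iron-sulphur cluster before ubiquinone, was at -0.18 and did not pass (adjusted p = 0.205).

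Among the accessory subunits, which surround the core and help its assembly and stability, the 10 Ndufa members ranged from -0.36 to 0.07 and none passed. The lowest was Ndufa6, an accessory subunit of the LYR family, with 11743, 11057 and 14351 on neocortical and 10249, 9346 and 9263 on cerebellar arrays. Every cerebellar array was below every neocortical one, yet the adjusted p was 0.0782. It passed with the values as deposited and with median scaling. Ndufa1, a small membrane-arm subunit of the X chromosome, had one of the smallest differences, -0.01 with a 95% interval from -0.17 to 0.15. Ndufa4, now assigned to complex IV despite its name, was at -0.11 (interval -0.28 to 0.07).

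The membrane-arm accessory subunits of the Ndufb and Ndufc series held both complex I calls, with 2 of 10 lower and a range from -0.43 to 0.12. Ndufc2 read 43460.0, 43359.8 and 45022 on neocortical arrays and 33705, 32195 and 33247 on cerebellar arrays. The regions did not overlap and the spread within each was small. The log2 difference was -0.41 ± 0.066 (SE), or 1.33-fold lower, with an adjusted p of 0.00566. A second probe set of Ndufc2 also passed, at -0.41 (27608, 26092.5 and 27625 against 21410.5, 20560.3 and 19415), and the third probe set tested was at -0.22 and did not. Both probe sets that passed have identifiers ending in _s_at, which can detect more than 1 transcript, and with such probe sets left out the gene did not pass (adjusted p = 0.225). Without the variance trend it also did not pass (0.0744).

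Ndufb10, another membrane-arm subunit, read 14027, 14259.5 and 15604 on neocortical and 10668, 9772 and 12217 on cerebellar arrays. All cerebellar values were lower. The difference was -0.43 ± 0.10 (SE), 1.35-fold, with an adjusted p of 0.0301. The gene has 1 probe set. Leaving out cerebellar replicate 3 kept the call, and leaving out any other array lost it (adjusted p from 0.0574 without cerebellar replicate 1 to 0.123 without neocortical replicate 3). It was also lost with no filter (0.106) and with no variance trend (0.112). Ndufc1, the partner of Ndufc2 in the membrane arm, was at -0.27 with non-overlapping arrays (21832, 21206 and 21184 against 17892, 16819 and 18701), and its adjusted p of 0.0577 missed the threshold. It passed with median scaling and with the filter at the 60th percentile. Ndufs4, an accessory subunit needed for the finished complex, was at -0.21 on its brightest probe set, and its 3 tested probe sets were all below 0 without passing.

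Complex II, succinate dehydrogenase, had 4 members tested and none passed. The median was -0.16. Sdha, the flavoprotein that binds succinate, was at 0.02 (19426, 17933 and 20302 against 19490.2, 20884 and 18043), and its sign changed under 3 processing alternatives and without 2 of the arrays. Sdhb, the iron-sulphur subunit, was at -0.12 (adjusted p = 0.47). The membrane anchors Sdhc and Sdhd were at -0.21 and -0.24 with every cerebellar array below every neocortical one, and with adjusted p of 0.164 and 0.147. The second probe set of Sdhc went the other way, at 0.64, also without passing.

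Complex III, the cytochrome bc1 complex, had 1 of 7 members past the threshold. Uqcrb, a subunit at the ubiquinone-binding region, read 81529, 79531 and 81529 on neocortical and 67470.3, 66729 and 70889.9 on cerebellar arrays. The values did not overlap. The difference was -0.24 ± 0.062 (SE), 1.18-fold, with an adjusted p of 0.0387. The call was lost without any 1 of the 6 arrays (adjusted p from 0.0524 without cerebellar replicate 3 to 0.143 without neocortical replicate 3). With the values as deposited the difference was -0.09 (adjusted p = 0.515), and its other probe set, at -0.28, did not pass. Of 16 alternatives of processing and array choice, 3 kept the call of Uqcrb.

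Among the remaining complex III members, Uqcrfs1, the Rieske iron-sulphur protein, was the lowest. Its arrays read 13224, 13295 and 12949.8 in neocortical and 10450.4, 11974 and 9504 in cerebellar astrocytes. The regions did not overlap, and the adjusted p of -0.31 ± 0.10 (SE) was 0.0818. It passed with median scaling (with which Uqcrb did not) and without cerebellar replicate 2. The core proteins Uqcrc1 and Uqcrc2, Cyc1, which carries cytochrome c1, and the hinge protein Uqcrh lay between -0.14 (Uqcrh) and -0.0038 (Uqcrc2), and Uqcrq was at 0.11. The intervals of all 7 members lay inside 1.5-fold.

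Complex IV, cytochrome c oxidase, held the member with the largest difference and 3 of the 6 calls. Cox7a1, the isoform typical of heart and skeletal muscle, read 770.4, 750.8 and 717.0 on neocortical arrays and 418.8, 420.5 and 474.0 on cerebellar arrays. The 2 sets of arrays were well apart. The difference was -0.77 ± 0.18 (SE), 1.71-fold lower (adjusted p = 0.0301), from the gene's 1 probe set. Its signal was above the range of the bacterial control probe sets, which reached 269.2. The call was lost with the values as deposited (-0.64, adjusted p = 0.0693) and without any array other than cerebellar replicate 3 (adjusted p from 0.0531 without cerebellar replicate 1 to 0.113 without neocortical replicate 1).

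Cox7a2, the isoform found in most tissues, was lower too, by less. It read 53286, 52951 and 52645 on neocortical and 46038, 42463 and 42834 on cerebellar arrays, with no overlap. The difference was -0.28 ± 0.067 (SE), 1.21-fold, with an adjusted p of 0.032. Its other probe set was at -0.15 and did not pass (adjusted p = 0.333). The call held without cerebellar replicate 1 and was lost without any other array (adjusted p from 0.0663 without cerebellar replicate 2 to 0.115 without neocortical replicate 1). It was also lost with the values as deposited (0.162) and with median scaling (0.126). Of the 16 alternatives, 5 kept the call of Cox7a2. Whether Cox7a1 and Cox7a2 differed in the size of their change was not tested, and their 95% intervals, -1.19 to -0.36 and -0.43 to -0.12, overlap.

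Cox6b1, a subunit on the intermembrane side, passed close to the threshold. It read 64925, 63194 and 63153 on neocortical and 55871, 53286 and 53416 on cerebellar arrays. The difference was -0.23 ± 0.063 (SE), 1.18-fold, with an adjusted p of 0.0459. Its other probe set was at -0.0029 and did not pass. The call was lost with the array number as a block (adjusted p = 0.05003), with the values as deposited (0.501), with median scaling (0.267) and without any 1 array (0.0603 without cerebellar replicate 1 to 0.163 without neocortical replicate 1). Of the 16 alternatives, 2 kept the call of Cox6b1. The plot of signal by array shows the 6 members that passed.

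**Figure D2:**
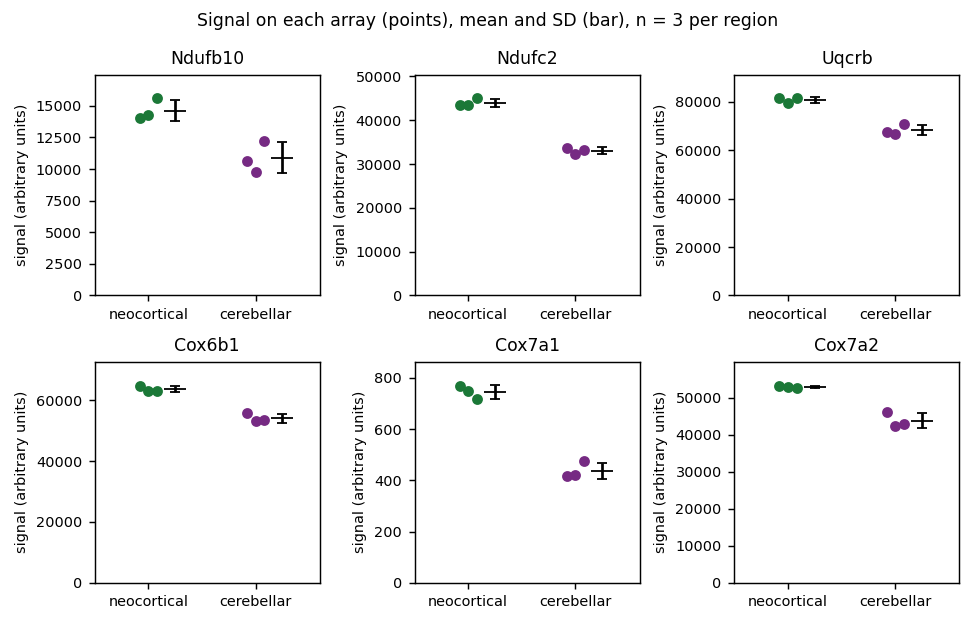
Quantile-normalized signal (arbitrary units, axes from 0) of the 6 members past the threshold on each of 3 neocortical and 3 cerebellar arrays, with mean and SD beside the points. In each panel all cerebellar arrays lie below all neocortical arrays, with the widest relative gap for Cox7a1.

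The other isoform pairs of complex IV did not pass. Cox4i1, the widespread form of the subunit that senses ATP, read 51758, 49588 and 46851 on neocortical and 51345, 52951 and 47153 on cerebellar arrays. The arrays overlapped and the difference was 0.03 (interval -0.14 to 0.20). Cox4i2, the form known from lung and from low oxygen, lay at 133 to 185 on neocortical and 154 to 271 on cerebellar arrays, mostly inside the range of the bacterial controls. Its mean only just passed the filter of 183.7, and its interval from -0.58 to 1.18 leaves the difference of 0.30 undetermined. Cox6a1, the widespread form of subunit VIa, was at -0.03 (interval -0.23 to 0.18). Cox6a2, its heart and muscle form, read 265.0, 385.4 and 368.4 against 336.9, 189.8 and 214.1, near the control range as well, with a difference of -0.49 (interval -1.23 to 0.26, adjusted p = 0.391).

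Cox6c was the only member with a probe set that passed upward. Its second probe set read 10664, 12130.4 and 10474 on neocortical and 13903, 14204 and 14669 on cerebellar arrays, without overlap. The difference was 0.37 ± 0.088 (SE, adjusted p = 0.032), while its brightest probe set was at 0.15 (adjusted p = 0.261). With median scaling the passing probe set was at 0.14 (adjusted p = 0.559), and its call was also lost with the values as deposited (0.066). Of the 14 alternatives that include this probe set, 6 kept its call. The call held without neocortical replicate 2 or cerebellar replicate 1 and was lost without any other array, with adjusted p from 0.0628 without cerebellar replicate 2 to 0.127 without neocortical replicate 3. Cox5a and Cox5b, which take part in regulating the enzyme, were at -0.19 and -0.06. Cox7c was at 0.04, with an interval from -0.46 to 0.54. Its brightest probe set was dim, at 620 to 646 on neocortical and 487 to 804 on cerebellar arrays. The other probe set of Cox7c was at 0.35 and did not pass.

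Probe sets of 1 gene often gave different values. Of 97 member probe sets tested, of 106 in all, 7 were lower (5.8% of all probe sets were) and 1 was higher (4.95% of all). More than 1 probe set was tested for 31 members. In 15 of these all probe sets were below 0, in 4 all were above 0, and in 12 the signs differed. The widest spread was for Ndufb2, from -0.02 on its brightest probe set to 1.23 on a dim one that read 34.5, 325.1 and 125.1 on neocortical arrays and 368.6, 290.2 and 303.6 on cerebellar arrays. For Ndufs8, a core subunit, 6 probe sets ran from -0.15 to 0.71, the latter again a dim probe set. The brightest probe set of 30 members had a suffixed identifier, and with suffixed probe sets left out 39 members were tested and Cox7a1 alone passed. Many respiratory subunit genes have processed pseudogenes, and cross-hybridisation to such copies was not tested. The plot of probe sets by gene shows these ranges.

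**Figure D3:**
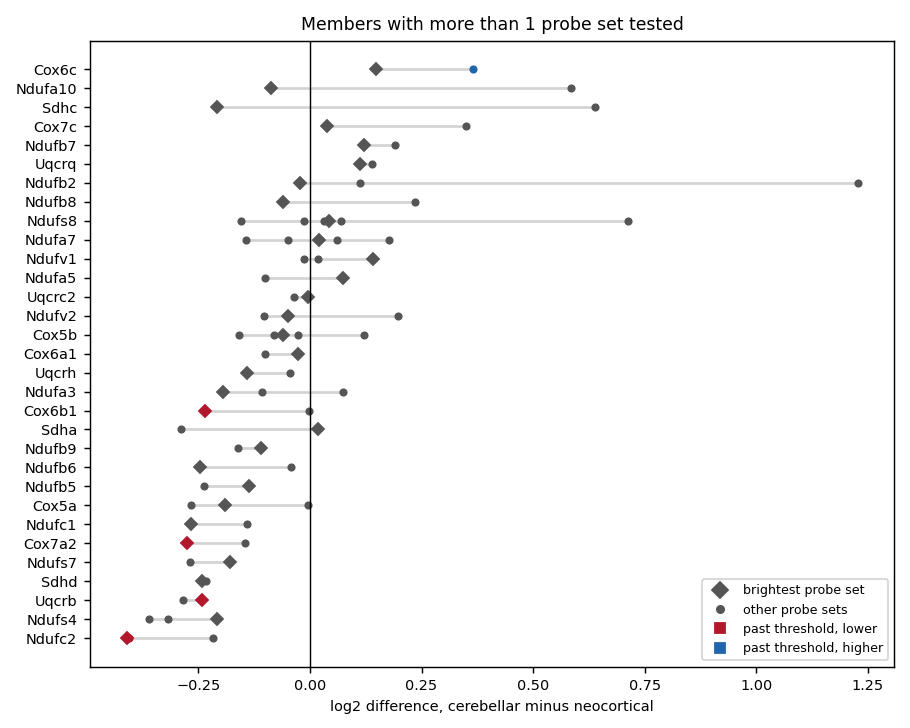
Log2 difference, cerebellar minus neocortical, of each tested probe set of the 31 members with more than 1 (diamonds, brightest probe set; circles, others; colour, past the threshold). Ndufc2 has 2 overlapping red marks near -0.41, Cox6c has 1 blue mark at 0.37, and dim probe sets of Ndufb2, Ndufs8 and Sdhc lie far to the right of their brighter partners.

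Other genes of respiration were read from lists, against the same 7.47% lower and 5.4% higher among all genes. Of 15 further nuclear genes of the chain tested, 2 were lower and none higher, with a median of -0.17. Most encode subunits, but the list also holds Cycs, for the carrier cytochrome c, and Cox7a2l. Cox6b2, the isoform of Cox6b1 known from testis, read 15478, 15371 and 13295 on neocortical and 8542, 8397 and 10318 on cerebellar arrays. The difference was -0.70 ± 0.11 (SE, adjusted p = 0.00513), 1.62-fold lower, and Cox6b2 passed without any 1 array as well. With no filter its adjusted p was 0.0501, and none of the 19 further chain genes then tested passed. Ndufa12, a complex I accessory subunit, was at -0.34 (adjusted p = 0.0342), but a probe set without a suffix was at 0.09, and the call was lost without any 1 array (adjusted p from 0.0607 without cerebellar replicate 1 to 0.11 without neocortical replicate 2). ND5, the complex I subunit that is the 1 gene of mitochondrial DNA with a probe set named here, read 115528, 119083 and 101357 against 105349, 95940.2 and 72573. It was at -0.31 (adjusted p = 0.172) and passed with the array number as a block (0.0371).

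ATP synthase, which follows the chain, showed no call in either direction among 16 genes tested, its subunits and the inhibitory factor gene Atpif1. Their median was -0.05 and all 16 intervals lay inside 1.5-fold. At an unadjusted p under 0.05, 2 of the 16 were lower and none higher, against 1957 lower and 1603 higher of all 12637 genes. Atp5g3, a subunit of the c-ring, was at -0.06 and Atp5h, of the peripheral stalk, at -0.25 (adjusted p = 0.154). Genes of mitochondrial import, carriers and chaperones also gave no call among 21 tested, with a median of -0.03. At an unadjusted p under 0.05 there were 3 of the 21, against 3560 of all 12637 genes. The phosphate carrier gene Slc25a3 was at 0.01 and the outer-membrane channel gene Vdac1 at -0.18 (adjusted p = 0.156).

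Factors that assemble the chain were lower in 6 of 37 cases (16.2%) and higher in none, with a median of -0.16 and 31 below 0. Ndufaf6, a complex I assembly factor, was at -0.80 ± 0.20 (SE), Coa6, which works on copper delivery to complex IV, at -0.65 ± 0.098, Ndufaf3, another complex I factor, at -0.61 ± 0.15, and Nubpl, an iron-sulphur cluster factor, at -0.56 ± 0.13. Coa6 read 5548, 5859.8 and 6198 on neocortical against 3780.2, 3597 and 3869 on cerebellar arrays (adjusted p = 0.00425). The copper chaperone gene Cox17 (-0.52) and Sdhaf4 (-0.37), of complex II assembly, were the others. The count fell to between 1, without neocortical replicate 3, and 5, without cerebellar replicate 2, when 1 array was left out, and was 2 without neocortical replicate 2, cerebellar replicate 1 or cerebellar replicate 3 and 3 without neocortical replicate 1. It was 2 with no filter and 1 with no variance trend. Among all genes 429 of 18193 were lower with no filter. Of all 27022 probe sets, 928 were lower with no variance trend and 1567 with it.

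The tricarboxylic acid cycle and its entry enzymes had 4 of 17 genes lower (23.5%) and none higher, with a median of -0.16. Pcx, pyruvate carboxylase, which lets astrocytes make new oxaloacetate, read 9007, 7821 and 7942 on neocortical and 4467, 4325 and 3462 on cerebellar arrays. Its difference of -1.02 ± 0.12 (SE), 2.03-fold, had an adjusted p of 0.00143. Idh2, the NADP-dependent isocitrate dehydrogenase, was at -0.76 ± 0.13, Suclg2, a succinyl-CoA ligase subunit, at -0.62 ± 0.099 and Dlat, a pyruvate dehydrogenase component, at -0.58 ± 0.14. Dlat missed the threshold without any array other than cerebellar replicate 1, with adjusted p from 0.0828 without cerebellar replicate 2 to 0.127 without neocortical replicate 3. Leaving out 1 array left 3 or 4 genes of the list past the threshold, no filter left 2, and leaving out suffixed probe sets left 1 of 12 tested. Among all genes 429 of 18193 were lower with no filter.

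Regulators of mitochondrial biogenesis gave no call among 17 tested. At an unadjusted p under 0.05 there were 4 of the 17, 2 in each direction, against 3560 of all 12637 genes. The median of the regulators was 0.17 and fell to 0.01 with median scaling, with which 1 of them was lower. Under other alternatives, 1 was higher with the floor at the 40th percentile, with the filter at the 60th percentile and without cerebellar replicate 1, 1 was lower without cerebellar replicate 3, and 1 was higher and 1 lower with probe sets averaged per gene or suffixed ones left out. Relative to the neocortical mean, their median was 0.17 and 0.16 on cerebellar arrays 1 and 3 and -0.01 on array 2, as the plot of list medians shows. Without cerebellar replicate 1 the median was 0.05. Ssbp1, the DNA-binding protein of mitochondrial DNA, was at 0.22, and Yy1, a transcription factor, was also at 0.22 but turned to -0.0051 with median scaling and to -0.10 as the mean of its probe sets.

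**Figure D4:**
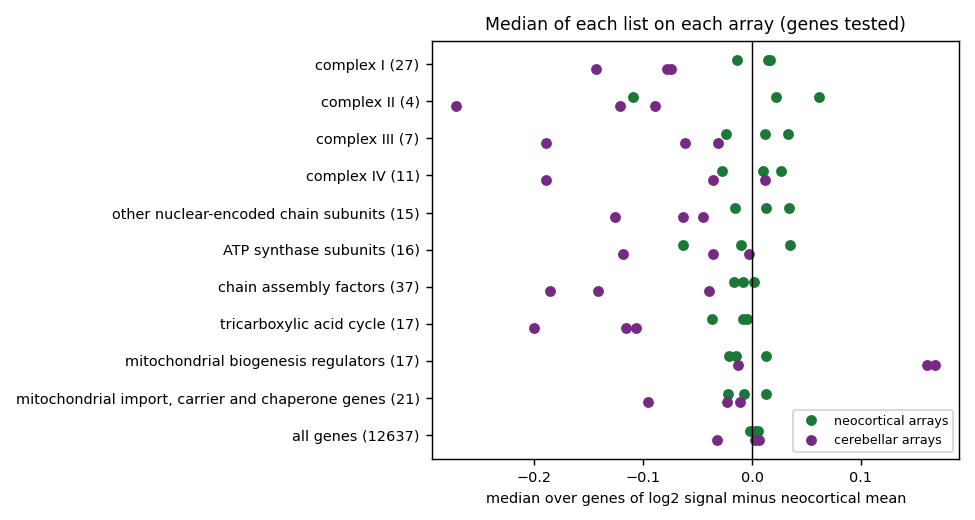
Median over the tested genes of each list (number in brackets) of log2 signal minus the mean of the neocortical arrays, for each of the 3 neocortical and 3 cerebellar arrays. Complexes I and III, the further nuclear chain genes, the assembly factors and the tricarboxylic acid cycle have all cerebellar medians below all neocortical ones, while complex II, complex IV and ATP synthase overlap.

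Of all 27022 probe sets tested, 1337 were higher (4.95%) and 1567 lower (5.8%) on cerebellar arrays. By gene the shares were 5.4% higher and 7.47% lower. The probe set counts were 821 and 2121 with median scaling, 1602 and 1459 as deposited and 678 and 928 with no variance trend. With no filter they were 577 and 704 of 45037. Leaving out 1 array gave 550 to 1242 higher and 668 to 1560 lower. All 12 astrocyte markers were above the filter; 4 were lower (Ndrg2, Glul, Slc1a3 and Aldoc) and Aqp4 was higher. With no filter none of the 12 passed, with no variance trend 2 were lower and none higher, and with median scaling 5 were lower and none higher. Leaving out 1 array left 3 to 5 lower, and none higher without neocortical replicate 1 or 3 or cerebellar replicate 2. Their summed signal was 308408 to 365148 on neocortical and 217439 to 318883 on cerebellar arrays. Of 5 oligodendrocyte lineage markers tested, of 8 listed, Olig1 and Olig2 were lower and Mbp higher (sums 71837 to 83125 against 53416 to 81355), with Mog at the floor on every array. Mbp read 209.0, 58.8 and 288.4 on neocortical arrays, 1 of them under the floor, so the size of its difference depends on the floor. Of 7 fibroblast markers Thy1 was lower and none higher (55587 to 94569 against 50707.0 to 217197), while without cerebellar replicate 1 a total of 4 were higher and none lower. With all arrays the median of the 7 was 0.72, and only 2 lay below 0. Of 7 mural cell markers tested Vtn was higher and Acta2 lower (168970.0 to 194395 against 129042 to 158494). Of 9 striated muscle markers tested, of 27 listed, Myh8 was higher, with 4453 to 7823 on cerebellar arrays and under the floor on every neocortical one, and Casq1 was lower (sums 7660.0 to 8518 against 9607 to 12912). Of 5 neuronal markers tested Syt1 was lower (21071 to 23782 against 15409 to 24641), but the median of the 5 was 0.14 and only 2 lay below 0. Of 2 endothelial markers Kdr was lower, with Pecam1 at the floor throughout (2116 to 2861 against 1113 to 2472), and none of 8 microglial markers passed (9808 to 28035 against 5679 to 31188.9). The calls of the neuronal, mural cell and fibroblast lists were all lost with no filter and without neocortical replicate 1 or 3, and Mbp was lost with no filter. The part of these cell types in the differences of the respiratory genes was not tested.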

How the data were processed

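Per the labels, total RNA was amplified, biotin-labelled and hybridised to 1 array per sample. The authors deposited 1 linear intensity per probe set and array. The sources used here do not name the summarisation or software. The deposited medians ran from 284.5 to 361.2, so quantile normalization was applied to 45037 probe sets, controls left out. Values were floored at the 20th percentile (62.2), put on the log2 scale and kept where the mean reached the 40th percentile (27022). limma 3.58.1 in R 4.3.3 (lmFit, eBayes with trend, two-sided) compared the regions without a block; p-values were adjusted by Benjamini-Hochberg over all probe sets, threshold 0.05. The fit was also run on simulated data with independent normal noise of the fitted spread, which cannot show how well its assumptions hold for these arrays. Precision is limited by 3 arrays per region.

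Gene names came from the platform annotation, updated by Entrez ID to GRCm38.p6: 34945 probe sets had 1 symbol, 932 several and 9160 none, and 34741 of the first were matched. The brightest probe set stood for a gene. The members and lists were chosen with earlier results of these data known. Named were all members past the threshold, isoform pairs, the brightest members of each complex, and up to 4 genes past the threshold per list, or otherwise the brightest; of marker lists, only genes past the threshold; any other member is named after its value was seen.

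Same-numbered arrays deviated together (correlations 0.182, 0.186 and 0.101; others -0.184 to 0.0261), so the numbers may pair the arrays, from the data and not the labels. Alternatives covered scaling, floor, filter, probe set choice, block, variance trend and leaving out each array. Motifs were searched on both strands.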

Additional observations from a re-analysis of the deposited data

How the results depend on the processing

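No member was higher in cerebellar astrocytes under any of the 16 alternatives except averaging probe sets per gene, with 1 (Cox6c). The count of lower members, 6, became 3 with the values as deposited, 4 with the floor at the 40th percentile, 2 with no filter and 3 with probe sets averaged per gene. It became 1 each with suffixed probe sets left out and with no variance trend, and ran from 1 to 3 when 1 array was left out. Calls over the whole array fell as well. Of all 27022 probe sets, 1567 were lower in the main fit and 928 with no variance trend. With 1 array left out the number ran from 668 to 1560. With suffixed probe sets left out 1169 of 20089 were lower. By gene, 944 of 12637 were lower in the main fit and 429 of 18193 with no filter. Median scaling kept the count of lower members at 6, with Ndufa6, Ndufc1 and Uqcrfs1 in place of Uqcrb, Cox6b1 and Cox7a2. With the array number as a replicate block it was 5; the block lost the call of Cox6b1 and gained that of ND5. It also raised the lower count from 4 to 6 for astrocyte markers, from 1 to 2 for neuronal and for mural cell markers and from 4 to 5 for hypoxia-responsive genes, and the higher count from 0 to 1 for fibroblast and from 1 to 2 for striated muscle markers. The counts of the other lists were as without it. The median of -0.10 became -0.30 with median scaling and ran from -0.12 to -0.061 (without cerebellar replicate 3) when 1 array was left out; it stayed below 0 throughout. Of 798 values of single genes under alternatives, 623 kept direction and call, 154 lost the call, 2 gained it and 19 changed sign. The 623 include genes that passed neither in the main fit nor in the alternative, so only part of the 798 could lose a call. Those that changed sign were Atp5g3 (0.066) and Cox6a1 (0.10) with the values as deposited, Cox4i1 (-0.073), Slc25a3 (-0.081) and Yy1 (-0.0051) with median scaling, Yy1 (-0.10) as the mean of its probe sets, Ndufa12 (0.091) with suffixed probe sets left out, and Sdha (-0.018 as deposited, -0.18 with median scaling, -0.14 as the mean of probe sets). With 1 array left out, Cox4i1 ran from -0.0067 to 0.076, Cox6a1 from -0.11 to 0.023, Sdha from -0.033 to 0.071 and Slc25a3 from -0.13 to 0.15. The cause of these changes was not tested. Signals near the bacterial controls, as for Cox4i2 and Cox6a2, limit what can be said of those genes.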

Other observations

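Genes known to respond to low oxygen, some of which adjust mitochondrial oxidation, went both ways. Of 16 tested, 4 fell below neocortical astrocytes past the threshold and 2 rose above them, and the median was -0.11. Among all genes tested, 7.47% were lower and 5.4% were higher. Egln3, an oxygen-sensing prolyl hydroxylase, read 4988, 4373 and 4499 on neocortical and 7813, 7505 and 7369 on cerebellar arrays, a log2 difference of 0.71 ± 0.096 (SE, limma adjusted p = 0.00228). Ldha, which makes lactate from pyruvate, was at 0.63 ± 0.10 (SE, adjusted p = 0.0055), although with median scaling it was at 0.46 and did not pass (adjusted p = 0.0809). Pdk1, which switches off pyruvate dehydrogenase, read 2088, 2574 and 1814 against 1274, 691.6 and 1157, a difference of -1.09 ± 0.24 (SE, adjusted p = 0.0232), and Vegfa, an angiogenic growth factor, was at -0.72 ± 0.15 (SE, adjusted p = 0.0181). Pdk1 missed the threshold without any 1 neocortical array (adjusted p from 0.0532 without replicate 3 to 0.0963 without replicate 2), and Vegfa without neocortical replicate 2 (0.0509) or 3 (0.0785). The lower count fell to 0 without neocortical replicate 2 or 3 and to 2 without replicate 1, while both higher genes passed without any 1 array. With no filter or with no variance trend no gene of the list was lower and Egln3 alone was higher. Of the listed genes, 3 were lower and 1 was higher with suffixed probe sets left out, and 5 were lower and 1 was higher with median scaling. Over all genes, 429 of 18193 were lower and 319 higher with no filter. With median scaling 1270 of 12636 were lower and 373 higher.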
